A study of Saccharomyces cerevisiae with 12 samples.

Results

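The transcripts of the guanine branch of purine synthesis were followed in budding yeast: the IMP dehydrogenase genes *IMD2*, *IMD3* and *IMD4*, the GMP synthase gene *GUA1* and the guanylate kinase gene *GUK1*. They were selected by gene symbol, 5 of the 7112 features in the count table, and all 5 passed the filter on low counts. *IMD2* was already known from these libraries to be much lower in *sis2*Δ than in WT, so the *sis2*Δ and WT levels of all 5 genes are given as a description, with no test. The tests of the genes below are between potassium concentrations within a strain. These contrasts were not used to choose the genes, but they share libraries with the contrasts between strains.

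RNA was sequenced from *sis2*Δ in 0.5 mM KCl, *sis2*Δ in 7.35 mM KCl, WT in 0.5 mM KCl and WT in 7.35 mM KCl, as 4 groups of 3 biological replicates. The *sis2*Δ strain, CGY41.34, is MATa with sis2d0::kanMX, a replacement of *SIS2* (a gene linked to potassium uptake through Ppz1p) by a drug marker. WT, CGY41.30, is MATa, and each genotype was represented by a single strain. Both strains grew overnight to saturation in medium with standard potassium, 7.35 mM. They then grew for 24 h in exponential phase at either concentration, with an OD600 kept at about 0.1 or less. For potassium titrations the paper names a custom potassium-free medium, with ammonium sulfate or arginine added as nitrogen source. Its account of these RNA cultures does not state the nitrogen source. Libraries held between 35451323 and 46543107 expected counts. *SIS2* had 39.5 to 88.5 counts in the 6 *sis2*Δ libraries, against 3119.5 to 3807.5 in the 6 WT libraries. Summed over the MATa markers, levels were 5759 to 11841 CPM per kb in the 12 libraries, against 20.3 to 36.8 CPM per kb for the MATalpha markers.

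IMP is the branch point of purine nucleotide synthesis. IMP dehydrogenase oxidizes it to XMP with NAD+, in an enzyme that is activated by monovalent cations such as potassium, GMP synthase aminates XMP to GMP, and guanylate kinase phosphorylates GMP to GDP. In yeast, the step to XMP is encoded by several related genes, of which *IMD2* is known for its induction when guanine nucleotides run short. Its promoter is known for a choice between upstream start sites, whose short transcripts are terminated early by the Nrd1p, Nab3p and Sen1p machinery, and a downstream start site that yields the messenger RNA.

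The genes lie at separate places in the R64 genome. *IMD2* (YHR216W) is on the plus strand of chromosome VIII from 554396 to 555967, with its end 6676 bases from the end of the chromosome, and *IMD3* (YLR432W) is on the plus strand of chromosome XII from 1002557 to 1004128. *IMD4* (YML056C) is on the minus strand of chromosome XIII from 162194 to 164176. It has 2 exons, and its 408-base intron, from 163309 to 163716, holds the small nucleolar RNA gene *SNR54*. *GUA1* (YMR217W) is on the plus strand of chromosome XIII from 701790 to 703367, and *GUK1* (YDR454C) is on the minus strand of chromosome IV from 1366264 to 1366827.

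The windows before the start codons are shown because *IMD2* and *IMD3* share letters there while *IMD2* was 7.23-fold and *IMD3* 1.47-fold lower in *sis2*Δ than in WT in 7.35 mM KCl. Sequences are from the RefSeq R64 genome, read 5′ to 3′ on the coding strand. The *IMD2* and *IMD3* windows run from 320 to 151 bases before the start codon. In them, capitals mark the 2 longest blocks that both genes hold exactly, of 11 and 15 letters. Shorter shared stretches are left in lower case. In the *IMD4* and *GUA1* windows, capitals mark a motif of 7 or 6 letters described after them.
*IMD2* upstream, chrVIII:554076-554245, plus strand: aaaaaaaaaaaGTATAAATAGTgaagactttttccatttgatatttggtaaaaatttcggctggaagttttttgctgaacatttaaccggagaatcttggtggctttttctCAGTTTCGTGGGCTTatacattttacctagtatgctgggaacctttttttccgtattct
*IMD3* upstream, chrXII:1002237-1002406, plus strand: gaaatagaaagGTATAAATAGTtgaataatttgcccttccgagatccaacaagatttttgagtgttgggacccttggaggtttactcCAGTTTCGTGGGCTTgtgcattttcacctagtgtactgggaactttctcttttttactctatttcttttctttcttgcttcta
*IMD4* upstream, chrXIII:164283-164312, minus strand: ttctcaaactctTGGGCTTaaattttttta
*GUA1* upstream, chrXIII:701508-701537, plus strand: ttcccgacatttTGACTCttttcatgccgt

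The first block holds TATAAATAG, at 308 to 300 bases before the start codon in both genes. Of 6026 windows of 350 bases before the start codon of an annotated coding sequence, 1.88% held TATAAATAG on either strand. The block CAGTTTCGTGGGCTT was found in 2 of these windows, those of *IMD2* (209 to 195 bases before the start codon) and *IMD3* (233 to 219). Its last letters, TGGGCTT, were also found in the *IMD4* window, at 124 to 118, and in 3.07% of all windows. TGACTC, the core of sites bound by Gcn4p and by Bas1p, the activator of purine genes, was found before *GUA1* at 270 to 265 and before 7 of the 9 genes of IMP synthesis, against 8.96% of all windows. No other member held it. These motifs were chosen after the windows had been read, all were searched on both strands, and a match is a description of letters, not of binding. The 2 blocks were defined as letters that the *IMD2* and *IMD3* windows share. The region before *IMD1*, a disrupted copy of *IMD2* described below, was not examined on its own.

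The likeness of the *IMD* genes bears on how far their counts can be separated. Over the coding sequences, *IMD2* and *IMD3* were 88.9% identical, with 174 differing bases and a longest identical run of 94 bases. *IMD3* and *IMD4* were 82.5% identical, with a longest run of 139 bases, and *IMD2* and *IMD4* were 79.2% identical. A stretch of 120 coding bases, aligned over the 3 genes, is shown with the 16 differing positions in capitals. The stretch was placed around the longest run that *IMD2* and *IMD3* share, so it shows them at their most alike. It starts at coding base 1075 in *IMD2* and *IMD3* and at 1078 in *IMD4*.
*IMD2* coding, chrVIII:555470-555589, plus strand: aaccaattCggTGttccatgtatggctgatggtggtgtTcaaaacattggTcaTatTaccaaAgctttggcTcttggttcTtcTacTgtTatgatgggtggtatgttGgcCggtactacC
*IMD3* coding, chrXII:1003631-1003750, plus strand: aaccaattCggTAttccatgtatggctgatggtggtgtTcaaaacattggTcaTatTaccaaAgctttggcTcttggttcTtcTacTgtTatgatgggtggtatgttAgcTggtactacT
*IMD4* coding, chrXIII:162572-162691, minus strand: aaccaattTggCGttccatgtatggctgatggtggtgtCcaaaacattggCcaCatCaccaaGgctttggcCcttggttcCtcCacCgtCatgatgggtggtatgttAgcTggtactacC

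In this stretch *IMD2* differed from *IMD3* at 4 positions and from *IMD4* at 14. The nearest relative of *IMD2* is the segment of chromosome I from 227742 to 229317 that carries *IMD1*, a disrupted copy annotated in pieces (YAR073W and YAR075W). It was 96.6% identical to *IMD2*, with 54 differing bases and a longest identical run of 147. The stretch below, from base 813 to 932 of *IMD2*, was picked as the one of its length with the most differences. It shows 17 of the 54 in capitals. The stretches were chosen in different ways, so their counts of differences cannot be compared.
*IMD2* against *IMD1*, chrVIII:555208-555327, plus strand: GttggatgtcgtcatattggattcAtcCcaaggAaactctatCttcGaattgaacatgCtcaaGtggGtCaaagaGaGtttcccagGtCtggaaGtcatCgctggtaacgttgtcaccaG
*IMD1* segment, chrI:228554-228673, plus strand: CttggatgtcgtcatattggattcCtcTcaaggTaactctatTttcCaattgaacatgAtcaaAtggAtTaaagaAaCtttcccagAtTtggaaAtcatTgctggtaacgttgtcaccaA

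No stretch of 150 bases, the read length, of any of these genes occurred a second time in the genome, so that a full-length read without errors has a single place. Of shorter stretches of 50 bases, 33.7% of those in *IMD2* occurred elsewhere, 16.6% of those in *IMD3*, 7.24% of those in *IMD4* and 0 of those in *GUA1* and *GUK1*. The 2 *IMD1* rows together held 14.5 to 48.5 counts in each library. As a share of the *IMD2* count this was 3.25 to 4.88% in *sis2*Δ in 0.5 mM KCl, 1.09 to 1.61% in *sis2*Δ in 7.35 mM KCl, 0.735 to 1.40% in WT in 0.5 mM KCl and 0.247 to 0.429% in WT in 7.35 mM KCl. A split of reads between these rows was not tested. The larger row, YAR073W, was 1.40 higher on the log2 scale in 0.5 than in 7.35 mM KCl in *sis2*Δ, with an adjusted p of 0.00268 by edgeR's quasi-likelihood test, from 20.5 to 37.5 against 10 to 12 counts a library. In WT its log2 change was -0.11 (adjusted p = 0.807, edgeR).

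*IMD2* was high in WT cells in standard potassium and low in the other groups. Levels are given as CPM, counts relative to the library total after TMM scaling. In bulk cultures, fewer expressing cells and less RNA per cell cannot be told apart. *IMD2* had 27.6, 24.0 and 22.2 CPM in *sis2*Δ in 0.5 mM KCl and 29.0, 25.8 and 25.7 CPM in *sis2*Δ in 7.35 mM KCl. WT had 65.6, 55.0 and 54.7 CPM in 0.5 mM KCl and 196, 194 and 193 CPM in 7.35 mM KCl. The *sis2*Δ libraries in both media lay below all WT libraries, and the 2 groups of *sis2*Δ overlapped.

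**Figure D1:**
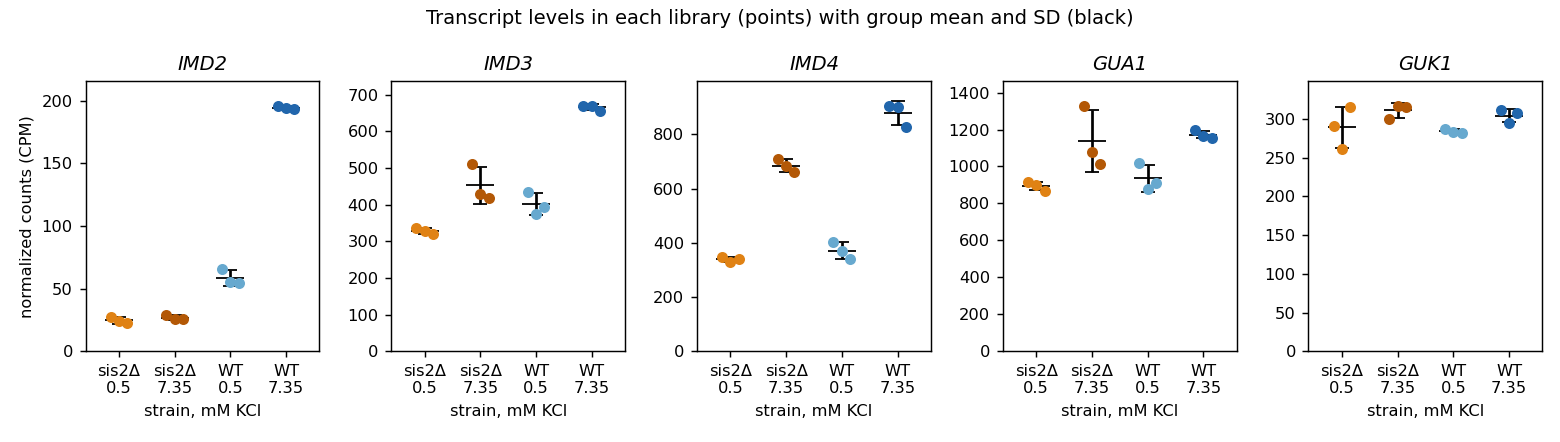
Normalized counts (CPM, vertical axis from 0) of the 5 genes in each of the 12 libraries, by strain and KCl concentration in mM. Points are libraries and black lines are the group mean and SD (n = 3). *IMD2* lay between 193 and 196 CPM in WT in 7.35 mM KCl and at or below 65.6 CPM in the other groups, whereas *GUK1* lay between 262 and 317 CPM in all of them.

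In WT, *IMD2* fell in low potassium by 1.73 on the log2 scale (SE 0.0763, adjusted p = 6.45e-14, edgeR), a level 3.33-fold lower in 0.5 than in 7.35 mM KCl. Within each of the 3 batches, where a batch number in the labels joins 1 library of every group, the log2 ratio lay between -1.82 and -1.58. Of the 6691 features tested, 23.2% were lower in this contrast, and *IMD2* had the 10th lowest fold change. The WT libraries in 7.35 mM KCl are also those against which *IMD2* was known to be low in *sis2*Δ. Its fold change, p and rank in WT are thus not independent of how it was chosen, and nothing is read from the rank. In *sis2*Δ, the log2 change of *IMD2* between the same media was -0.13 (SE 0.0822, 95% interval -0.30 to 0.040, adjusted p = 0.203, edgeR). Over all alternatives the adjusted p ran from 1.16e-08, with all *IMD* rows summed into 1, to 0.606. Without *sis2*Δ 0.5 mM KCl replicate 1 the change was -0.22, with an adjusted p of 0.0476. This difference between the strains, 1.604 on the log2 scale (SE 0.111), rests on the values that chose the gene and was not tested.

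Between the strains, *IMD2* was 7.23-fold lower in *sis2*Δ than in WT in 7.35 mM KCl, a log2 difference of -2.85 (SE 0.0808). In 0.5 mM KCl it was 2.38-fold lower, a log2 difference of -1.25 (SE 0.0802). Within batches the log2 ratio lay between -2.91 and -2.76 in 7.35 mM KCl and between -1.30 and -1.20 in 0.5 mM KCl. Of all features, the lowest 1% lay below -0.65 and -0.32 in these contrasts. *IMD2* was chosen with its low level in *sis2*Δ known, so its place among them was fixed beforehand and nothing is read from it.

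*IMD3* and *IMD4*, which encode the same enzyme activity, were more abundant than *IMD2* in every library. *IMD3* had 335, 327 and 319 CPM in *sis2*Δ in 0.5 mM KCl and 510, 429 and 418 CPM in *sis2*Δ in 7.35 mM KCl. WT had 433, 374 and 394 CPM in 0.5 mM KCl and 670, 670 and 656 CPM in 7.35 mM KCl. Low-potassium libraries lay below standard-potassium libraries within each strain, and *sis2*Δ lay below WT within each medium. *IMD4* had 348, 329 and 339 CPM in *sis2*Δ in 0.5 mM KCl and 711, 682 and 662 CPM in *sis2*Δ in 7.35 mM KCl. WT had 402, 371 and 339 CPM in 0.5 mM KCl and 906, 901 and 828 CPM in 7.35 mM KCl. For *IMD4* the strains overlapped in 0.5 mM KCl and were apart in 7.35 mM KCl.

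Low potassium lowered both transcripts in both strains. *IMD3* fell by 0.47 on the log2 scale in *sis2*Δ (SE 0.0726, adjusted p = 2.31e-05) and fell by 0.73 in WT (SE 0.0727, adjusted p = 4.31e-08, edgeR). *IMD4* fell by 1.01 in *sis2*Δ (SE 0.0671, adjusted p = 8.08e-11) and fell by 1.24 in WT (SE 0.0673, adjusted p = 2.30e-12, edgeR), levels 2.02-fold and 2.37-fold lower. *IMD4* had the 7th lowest fold change of the 6691 features in *sis2*Δ and the 16th lowest in WT. Within batches, the log2 ratio of *IMD4* lay between -1.05 and -0.96 in *sis2*Δ and between -1.29 and -1.17 in WT.

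Between the strains, the log2 difference of *IMD3* was -0.56 (SE 0.0725) in 7.35 mM KCl and -0.29 (SE 0.0726) in 0.5 mM KCl. That of *IMD4* was -0.36 (SE 0.0663) in 7.35 mM KCl and -0.13 (SE 0.0666) in 0.5 mM KCl. The order *IMD2*, *IMD3*, *IMD4*, *GUA1* and *GUK1*, by size of the difference from WT in 7.35 mM KCl, was not the order in low potassium within a strain. There the order was *IMD4*, *IMD3*, *GUA1*, *IMD2* and *GUK1* in *sis2*Δ, and *IMD2*, *IMD4*, *IMD3*, *GUA1* and *GUK1* in WT. Differences between genes were not tested.

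**Figure D2:**
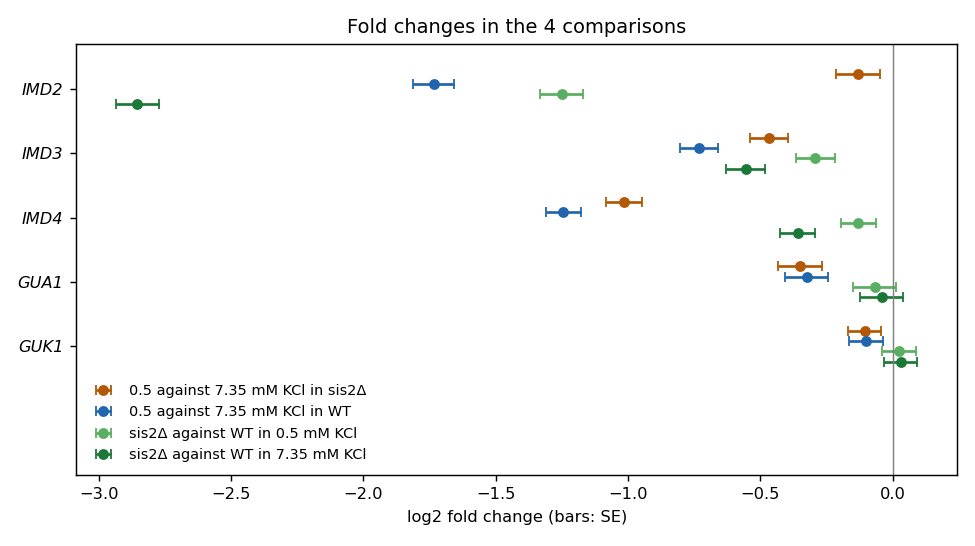
Log2 fold changes of the 5 genes (horizontal axis) in 4 comparisons, with bars of 1 SE from the fit over all 12 libraries. *IMD2* was at -2.85 in *sis2*Δ against WT in 7.35 mM KCl and at -0.13 in 0.5 against 7.35 mM KCl in *sis2*Δ, whereas *IMD4* was at -1.01 and -1.24 in the 2 comparisons of potassium.

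Levels of different genes were compared per kb of annotated exon. The 3 IMP dehydrogenase transcripts summed to 439 ± 10.9 CPM per kb in *sis2*Δ in 0.5 mM KCl, 740 ± 48.3 in *sis2*Δ in 7.35 mM KCl, 527 ± 39.6 in WT in 0.5 mM KCl and 1104 ± 33.3 in WT in 7.35 mM KCl (SD, n = 3 each). *IMD2* supplied a small share of that sum. Its share of the CPM per kb was 3.56 ± 0.309% in *sis2*Δ in 0.5 mM KCl, 2.31 ± 0.0282% in *sis2*Δ in 7.35 mM KCl, 7.04 ± 0.218% in WT in 0.5 mM KCl and 11.2 ± 0.280% in WT in 7.35 mM KCl (SD, n = 3 each). *IMD4* supplied 49.0%, 58.9%, 44.6% and 50.5% in the same groups, and *IMD3* the rest.

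**Figure D3:**
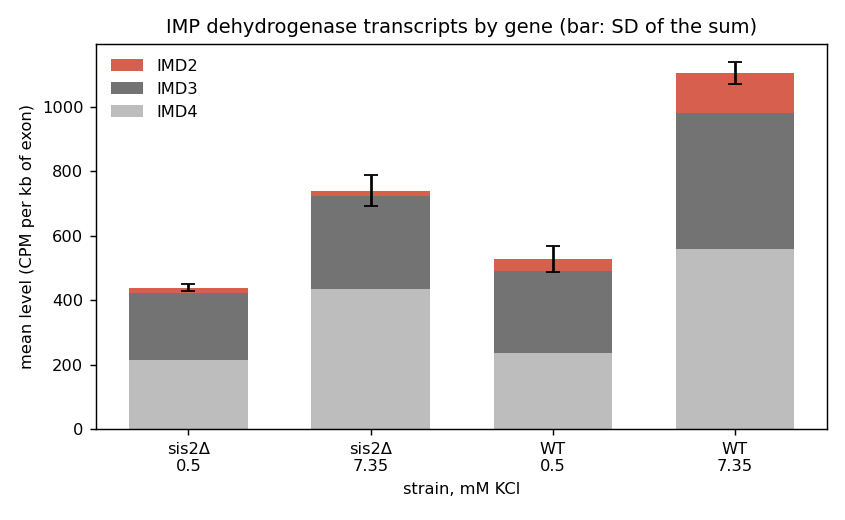
Mean level of the 3 IMP dehydrogenase transcripts (CPM per kb of exon, vertical axis from 0), stacked by gene, in the 4 groups. The error bar is the SD of the sum (n = 3). The stack was highest in WT in 7.35 mM KCl, at 1104 CPM per kb, and *IMD2* was the thinnest layer in all 4 groups, 11.2% of the stack at most.

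The order of the 5 genes per kb differed between media. In both groups at 7.35 mM KCl, *GUA1* was the highest and *IMD2* the lowest. *GUA1* ranged from 642 to 842 CPM per kb in *sis2*Δ and from 732 to 757 in WT. Next came *GUK1* (532 to 563) ahead of *IMD4* (420 to 451) and *IMD3* (266 to 325) in *sis2*Δ. In WT, *IMD4* (526 to 575) and *GUK1* (523 to 552) overlapped, above *IMD3* (418 to 426). In 0.5 mM KCl, *IMD3* and *IMD4* overlapped in both strains, at 203 to 213 and 209 to 221 CPM per kb in *sis2*Δ and at 238 to 276 and 215 to 255 in WT. *GUA1* (550 to 580) and *GUK1* (464 to 559) overlapped in *sis2*Δ in 0.5 mM KCl. *IMD2* lay below the other 4 genes in every library, at 14.1 to 17.5 CPM per kb in *sis2*Δ in 0.5 mM KCl and 123 to 125 in WT in 7.35 mM KCl.

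*GUA1*, the GMP synthase that acts on the product of IMP dehydrogenase, differed mainly between media. It had 916, 899 and 868 CPM in *sis2*Δ in 0.5 mM KCl and 1329, 1077 and 1012 CPM in *sis2*Δ in 7.35 mM KCl. WT had 1019, 879 and 913 CPM in 0.5 mM KCl and 1195, 1167 and 1155 CPM in 7.35 mM KCl. Replicate 1 of *sis2*Δ in 7.35 mM KCl was the highest of all 12 libraries, and within each strain the media did not overlap. *GUA1* fell in low potassium by 0.35 on the log2 scale in *sis2*Δ (SE 0.0814, adjusted p = 0.00145) and fell by 0.32 in WT (SE 0.0814, adjusted p = 0.00251, edgeR). Without replicate 1 of *sis2*Δ in 7.35 mM KCl the change in *sis2*Δ was -0.22, with an adjusted p of 0.0131. Between the strains, the log2 difference was -0.041 (SE 0.0813) in 7.35 mM KCl and -0.067 (SE 0.0813) in 0.5 mM KCl, with overlapping libraries in both media.

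*GUK1*, the essential kinase that makes GDP, varied least. It had 291, 262 and 315 CPM in *sis2*Δ in 0.5 mM KCl and 300, 317 and 316 CPM in *sis2*Δ in 7.35 mM KCl. WT had 287, 284 and 282 CPM in 0.5 mM KCl and 311, 295 and 307 CPM in 7.35 mM KCl. The media overlapped in *sis2*Δ but not in WT. The log2 change in low potassium was -0.11 in *sis2*Δ (95% interval -0.24 to 0.027, adjusted p = 0.186) and -0.10 in WT (95% interval -0.23 to 0.033, adjusted p = 0.209, edgeR). Without *sis2*Δ 0.5 mM KCl replicate 3, the change in *sis2*Δ was -0.17, with an adjusted p of 0.0409. The log2 difference between the strains was 0.030 (SE 0.0636) in 7.35 mM KCl and 0.025 (SE 0.0637) in 0.5 mM KCl.

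In all, 3 of the 5 genes passed the test in *sis2*Δ in low potassium, all lower, where 21.7% of all features tested were lower, and the median log2 change of the 5 was -0.35, against 0.0023 over all features. In WT, 4 of the 5 were lower, where 23.2% of all features were, with a median of -0.73, against -0.0012 over all features. The libraries in low potassium lay below those in standard potassium, without overlap, for 3 of the 5 in *sis2*Δ and 5 of the 5 in WT, where 25.3% and 28.4% of all features did. Between strains, libraries did not overlap and were lower in *sis2*Δ for 3 of the 5 in 7.35 mM KCl and 2 of the 5 in 0.5 mM KCl. Over all features, 16.6% and 7.64% had this pattern. Since *IMD2* chose the set and the *IMD* genes resemble each other, nothing is read from these last counts. The counts in low potassium are of the same related genes and share libraries with that choice. They describe the genes and were not tested against the shares of all features.

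The steps upstream and to the side were followed with 48 further genes in 6 lists. Of the 9 genes of IMP synthesis, low potassium lowered 6 in *sis2*Δ (median log2 change -0.24, against 0.0023 over all features) and 7 in WT (median -0.34, against -0.0012), where 21.7% and 23.2% of all features were lower, and all 9 log2 changes were negative in both strains. The largest change in *sis2*Δ was that of *ADE1*, which makes SAICAR (-0.47, adjusted p = 4.78e-06), and the largest in WT was that of *ADE5,7*, which encodes a bifunctional enzyme of the pathway (-0.58, adjusted p = 1.44e-06, edgeR). *ADE4*, the first committed enzyme, fell by 0.44 in *sis2*Δ and fell by 0.38 in WT. *ADE16* and *ADE17* encode the last enzyme. *ADE16* did not pass the test in either strain (-0.10 in each), and *ADE17* passed in WT (-0.33) and not in *sis2*Δ (-0.021). *ADE2*, which acts before *ADE1*, had the value nearest 0 in WT (-0.090, adjusted p = 0.210, edgeR).

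In the adenine branch, *ADE12* (adenylosuccinate synthase, the first step from IMP to AMP), *ADK1*, *ADK2* and *AMD1* did not pass the test between media in either strain, at log2 changes of 0.056 to 0.12 in *sis2*Δ and -0.12 to -0.0030 in WT. Without replicate 2 of *sis2*Δ in 0.5 mM KCl, 1 of them was higher in *sis2*Δ. *ADE13*, whose enzyme also acts after *ADE12* in the step to AMP, was counted with IMP synthesis. It was among the 7 genes of that list lower in WT in low potassium. Its mean was 247 CPM in 0.5 mM KCl and 282 CPM in 7.35 mM KCl in WT, and 231 and 252 CPM in *sis2*Δ. *ADE12* was 111, 112 and 104 CPM in *sis2*Δ in 7.35 mM KCl, against 148, 152 and 143 CPM in WT in 7.35 mM KCl, without overlap. It was lower in *sis2*Δ by 0.44 on the log2 scale in 7.35 mM KCl (adjusted p = 2.77e-05, edgeR). With the replicate number as a block, 2 of *ADE12*, *ADK1*, *ADK2* and *AMD1* were lower in this contrast rather than 1. In 0.5 mM KCl, the log2 difference of *ADE12* was -0.24 (adjusted p = 0.0366, edgeR). That call was lost without replicates 1 or 3 of *sis2*Δ in 0.5 mM KCl, replicate 2 of *sis2*Δ in 7.35 mM KCl, replicates 1 or 3 of WT in 0.5 mM KCl or replicate 1 of WT in 7.35 mM KCl (-0.25 to -0.19, adjusted p 0.0523 to 0.243). The same call was also lost in a fit of only the 6 libraries compared (-0.24, adjusted p = 0.0710, edgeR).

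Between the strains, 6 of the 48 further genes passed in 7.35 mM KCl, 1 higher and 5 lower in *sis2*Δ, where 13.4% of all features passed, 6.38% higher and 7.04% lower. In 0.5 mM KCl, 2 passed, both lower in *sis2*Δ, where 1.78% of all features passed and 0.583% were lower. In IMP synthesis, *ADE17* was lower in *sis2*Δ in 7.35 mM KCl by 0.46 (adjusted p = 9.96e-04) and *ADE5,7* by 0.30 (adjusted p = 0.00883, edgeR). The call of *ADE5,7* was lost without replicate 3 of *sis2*Δ in 7.35 mM KCl (-0.24, adjusted p = 0.0683) or replicate 1 of WT in 7.35 mM KCl (-0.26, adjusted p = 0.0512). The interaction of strain and potassium was called for 2 of the 48, *AAH1* and *GGC1*, where 2.74% of all features passed.

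**Figure D4:**
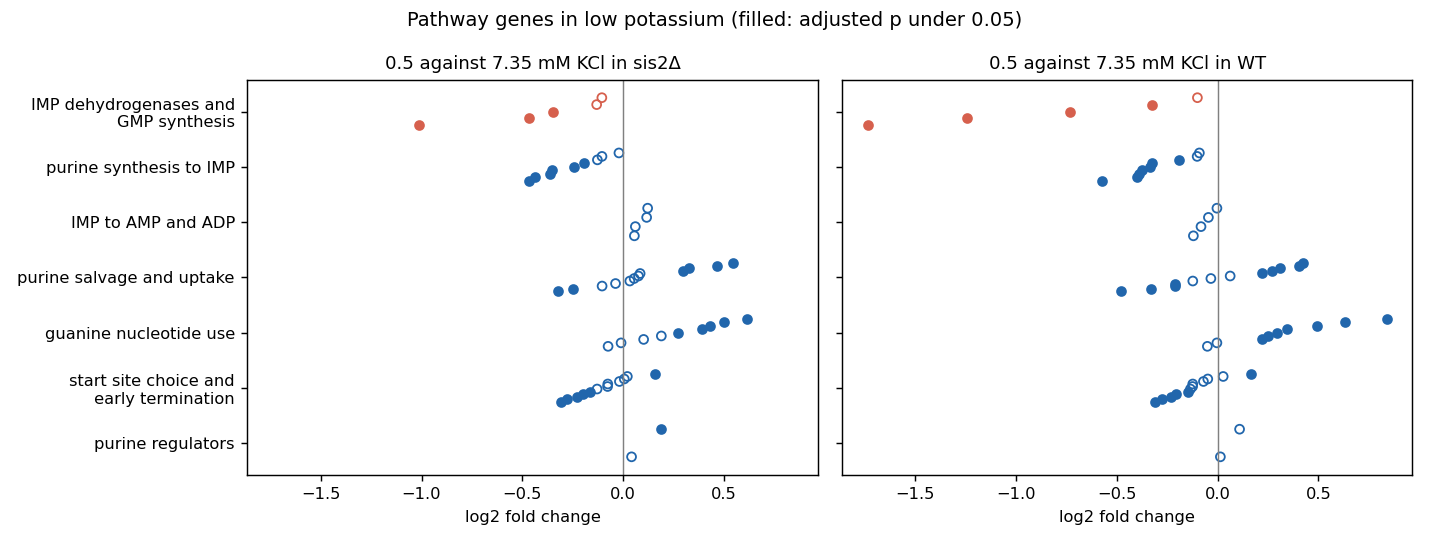
Log2 fold changes in 0.5 against 7.35 mM KCl (horizontal axis) in *sis2*Δ (left) and WT (right) for the 5 genes (red) and the 48 further genes (blue) in their lists. Each point is a gene, ordered by value within its list, and filled points had an adjusted p under 0.05. IMP synthesis genes lay at or below 0 in both strains, with 6 of 9 filled in *sis2*Δ and 7 of 9 in WT.

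Among the 12 genes of purine salvage and uptake, 4 rose and 2 fell in low potassium in *sis2*Δ, and 5 rose and 4 fell in WT, where 24.2% and 24.1% of all features were higher and 21.7% and 23.2% lower. *FCY21*, a member of the purine-cytosine permease family, was higher by 0.55 in *sis2*Δ and 0.41 in WT, and *GUD1*, guanine deaminase, was higher by 0.47 and 0.42. *XPT1*, xanthine-guanine phosphoribosyltransferase, fell by 0.25 in *sis2*Δ and fell by 0.33 in WT. *APT1*, adenine phosphoribosyltransferase, fell by 0.32 in *sis2*Δ (adjusted p = 0.00129) and fell by 0.21 in WT (adjusted p = 0.0242, edgeR). Its call in WT was lost without replicates 1 or 3 of WT in 0.5 mM KCl or replicates 1 or 2 of WT in 7.35 mM KCl (-0.21 to -0.16, adjusted p 0.0508 to 0.124). *HPT1*, the hypoxanthine-guanine phosphoribosyltransferase, had a log2 change of 0.076 in *sis2*Δ (adjusted p = 0.365) and fell by 0.21 in WT (adjusted p = 0.0119, edgeR). The call of *HPT1* in WT was lost without replicate 2 of WT in 0.5 mM KCl (-0.19, adjusted p = 0.0557) or replicate 3 of WT in 7.35 mM KCl (-0.16, adjusted p = 0.0756). *AAH1*, adenine deaminase, had 142, 134 and 127 CPM in *sis2*Δ in 7.35 mM KCl, against 192, 178 and 181 CPM in WT in 7.35 mM KCl. Its log2 change in low potassium was -0.038 in *sis2*Δ (adjusted p = 0.640) and -0.48 in WT (adjusted p = 1.30e-06), and it was lower in *sis2*Δ than in WT in 7.35 mM KCl by 0.45 (adjusted p = 3.12e-05, edgeR).

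Of 9 genes that use guanine nucleotides, low potassium raised 5 in *sis2*Δ and 7 in WT, where 24.2% and 24.1% of all features were higher. *YNK1*, nucleoside diphosphate kinase, rose by 0.61 in *sis2*Δ and 0.63 in WT. *GGC1*, the mitochondrial GTP and GDP carrier, rose by 0.39 in *sis2*Δ and 0.84 in WT. It had 185, 167 and 188 CPM in *sis2*Δ in 0.5 mM KCl and 133, 137 and 142 CPM in *sis2*Δ in 7.35 mM KCl, against 219, 216 and 210 CPM in WT in 0.5 mM KCl and 117, 126 and 117 CPM in WT in 7.35 mM KCl. Of the ribonucleotide reductase subunits, *RNR2* rose by 0.43 in *sis2*Δ and 0.49 in WT, and *RNR4* rose by 0.50 and 0.29. *THG1*, the guanylyltransferase of histidine tRNA, was the lowest of the list, at -0.074 in *sis2*Δ and -0.050 in WT, and did not pass in either. Members of this list act on other nucleotides as well.

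Between the strains, 13.4% of all features passed in 7.35 mM KCl, 6.38% higher and 7.04% lower in *sis2*Δ, and 1.78% passed in 0.5 mM KCl. Of these 9 genes, 2 passed in 7.35 mM KCl, 1 higher and 1 lower in *sis2*Δ, and 1 in 0.5 mM KCl. The number higher in 7.35 mM KCl was 2 in DESeq2, and also without replicates 2 or 3 of *sis2*Δ in 0.5 mM KCl or replicate 1 of *sis2*Δ in 7.35 mM KCl. *GGC1* was higher in *sis2*Δ by 0.19 in 7.35 mM KCl (adjusted p = 0.0354), a call lost without replicates 2 or 3 of *sis2*Δ in 7.35 mM KCl or replicates 1 or 3 of WT in 7.35 mM KCl (0.18 to 0.20, adjusted p 0.0753 to 0.113). In 0.5 mM KCl it was lower in *sis2*Δ, at -0.25 (adjusted p = 0.0247, edgeR), a call lost without replicate 1 of *sis2*Δ in 0.5 mM KCl or replicates 1 or 2 of WT in 0.5 mM KCl (-0.27 to -0.24, adjusted p 0.0659 to 0.104). This call was also lost in a fit of only the 6 libraries compared (-0.26, adjusted p = 0.0513, edgeR). *RNR4* was lower in *sis2*Δ by 0.22 in 7.35 mM KCl (adjusted p = 0.0447, edgeR), a call lost in 7 of the 12 fits that leave out 1 library (-0.21 to -0.16, adjusted p 0.0543 to 0.186). These libraries were replicate 1 of *sis2*Δ in 0.5 mM KCl, replicates 1 and 2 of *sis2*Δ in 7.35 mM KCl, replicates 1 and 2 of WT in 0.5 mM KCl and replicates 2 and 3 of WT in 7.35 mM KCl.

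The 12 genes of start site choice and early termination were taken because that machinery is known to act on *IMD2*. Between *sis2*Δ and WT, 13.4% of all features passed in 7.35 mM KCl and 1.78% in 0.5 mM KCl. Of these 12 genes, 0 passed by edgeR in either medium, with 3 and 1 at an unadjusted p under 0.05. In so short a list, nothing is read from a count of 0. In DESeq2 the count was also 0 in both. Without replicate 1 of *sis2*Δ in 7.35 mM KCl, 1 was lower in 7.35 mM KCl, and without replicate 2 of *sis2*Δ in 0.5 mM KCl, 2 were lower in 0.5 mM KCl. In low potassium, 5 fell and 1 rose in each strain, where 21.7% of all features in *sis2*Δ and 23.2% in WT were lower and 24.2% and 24.1% higher. The gene that rose was *PCF11*, a cleavage and termination factor (0.16 in each strain), whose call in *sis2*Δ was lost without replicate 2 of either *sis2*Δ group (0.13 in both, adjusted p 0.0540 and 0.0852). *SEN1*, the helicase of early termination, fell by 0.28 in *sis2*Δ and fell by 0.31 in WT, and *TFG2*, a subunit of the initiation factor TFIIF, fell by 0.31 and 0.23. *NRD1* did not pass in either strain (0.0058 in *sis2*Δ and -0.070 in WT). *NAB3* passed in WT (-0.28, adjusted p = 0.00339) and not in *sis2*Δ (-0.13, adjusted p = 0.153, edgeR). Of the regulators of purine genes, *BAS1* was higher in low potassium in *sis2*Δ by 0.19 (adjusted p = 0.0200, edgeR), a call lost without replicates 1 or 2 of *sis2*Δ in 0.5 mM KCl or replicates 2 or 3 of *sis2*Δ in 7.35 mM KCl (0.14 to 0.18, adjusted p 0.0561 to 0.113). Its log2 change in WT was 0.11 (adjusted p = 0.159, edgeR). The other regulator, *PHO2*, did not pass in either strain.

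The genes upstream of *IMD2* on chromosome VIII were higher in low potassium. *PHO12*, an acid phosphatase gene upstream of it whose reads may be split with its near copy *PHO11*, had 11447 to 18356 counts in *sis2*Δ in 0.5 mM KCl, against 413.5 to 487 in *sis2*Δ in 7.35 mM KCl. It rose by 5.10 in *sis2*Δ and 4.54 in WT in low potassium (adjusted p = 4.25e-18 and 2.86e-17, edgeR). YHR214C-E, upstream of *PHO12*, was higher by 1.77 in *sis2*Δ (adjusted p = 7.02e-04) and 1.45 in WT (adjusted p = 0.00292, edgeR), at 3 to 42 counts a library. YHR219W, nearer the chromosome end in a repeated subtelomeric family, had 17.0, 9.25 and 29.3 counts in *sis2*Δ in 7.35 mM KCl, against 69.2, 78.6 and 52.8 counts in WT in 7.35 mM KCl. It was lower in *sis2*Δ by 1.88 on the log2 scale (adjusted p = 3.70e-05, edgeR), and its log2 change in low potassium was -0.15 in *sis2*Δ (adjusted p = 0.754) and -1.25 in WT (adjusted p = 1.65e-04, edgeR). Its reads may be split between family members. YHR218W was below the filter, at 0.33 to 4.33 counts a library.

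Beside the other members, *TSR2*, next but 1 to *IMD3*, fell in low potassium by 0.39 in *sis2*Δ and fell by 0.26 in WT. *TSA2*, a peroxiredoxin gene next to *GUK1*, rose by 0.79 in *sis2*Δ and 0.65 in WT. *SEN1*, described above, also lies beside *IMD3*, and the other 12 neighbours of these 4 members lay between -0.38 and 0.16 in *sis2*Δ and between -0.22 and 0.15 in WT. *SNR54* in the *IMD4* intron had 47 to 80.5 counts a library and did not pass in either strain (0.043 in *sis2*Δ and 0.0084 in WT), in libraries made from poly(A) RNA.

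Across the 12 libraries, the gene whose log2 CPM was most like that of *IMD2* was *HEM13*, coproporphyrinogen oxidase of heme synthesis (Pearson r = 0.963), out of 6360 genes averaging 50 counts or more. YMR102C (0.933), *ENA1*, a sodium efflux pump (0.930), and YPR071W (0.925) were also among the most alike. Their ranges were smaller. *HEM13* averaged 90.0 and 91.5 CPM in *sis2*Δ in 0.5 and 7.35 mM KCl, and 97.7 and 117 CPM in WT in 0.5 and 7.35 mM KCl. *SCR1*, the RNA of the signal recognition particle, was at the other end (-0.960), followed by *GDH1*, the NADP-dependent glutamate dehydrogenase (-0.924), YOL103W-B (-0.923), *RRG7* (-0.922) and *CYC2* (-0.921). *SCR1* averaged only 5.06 to 11.8 CPM in the 4 groups, in libraries made from poly(A) RNA. Differences in its carry-over into such libraries were not tested. *IMD3* ranked 54th from the top at 0.854, *IMD4* 833rd at 0.593, *GUA1* 1311th at 0.483 and *GUK1* 2936th at 0.0925. The libraries form 4 groups, so these coefficients describe group means shared between genes and carry no p.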

How the data were processed

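RNAseq was made from 12 cultures, 3 per group, as strand-specific poly(A) libraries read at 2 x 150 bp. The authors deposited expected counts for 7112 features, without normalization, of which 40.1% were whole numbers. The submitters' processing notes name bcl2fastq, cutadapt 2.6, STAR 2.7.6a, featureCounts, Subread 1.6.2 and R64. How reads matching several features were divided is not given in the sources used here, and such division would blur differences between closely related genes. Counts for *IMD2*, *IMD3*, *IMD4*, *GUA1* and *GUK1* were whole in 10, 7, 4, 3 and 9 of the 12 libraries.

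Counts were rounded, filtered with filterByExpr by group (6691 features left), scaled with TMM (factors 0.960 to 1.03) and fitted in edgeR 4.0.16 (R 4.3.3), with all 12 libraries in a single quasi-likelihood model with 1 term per group, as in the covariate of the study. P-values were adjusted by Benjamini-Hochberg over all features, with a threshold of 0.05. A standard error is the size of the log2 fold change over the square root of F. The biological coefficient of variation was 5.70%, and chi-square per degree of freedom between replicates was 8.08 to 46.1. For genes with many counts, spread between cultures and not depth thus sets the precision. For rows with few counts, such as YAR073W, YHR214C-E and YHR219W, depth limits it as well. Nothing was left out. Tables and plots used Python 3.11.15, pandas 2.3.3 and matplotlib 3.10.9.

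Replicate numbers equal the batch numbers in the labels, which pairs libraries across groups. Over 18 same-number pairs, deviations from group means correlated with a median of 0.0576 (-0.0996 to 0.279), against -0.0343 for different numbers. Deviations sum to 0 within a group, so the different-number value is tied to the same-number value and is not a separate baseline. The block was an alternative, beside DESeq2 1.42.0, its size factors, 2 other filters, each library left out, only the 6 libraries compared, and *IMD* rows summed. The genes and lists were chosen with earlier results of these data known. Text names the 5 genes, near copies of *IMD2*, *SIS2*, the extremes of each list and its genes passing with a change of at least 0.5, the 2 genes on each side of each member, the 5 most and 5 least like *IMD2*, and others given for their place in a list, chosen after their values were seen. Of the genes this rule names, a gene is not reported here, neighbours of the other members with smaller changes are given as a range, and list extremes between strains are given only where they passed. The code was tested on simulated data.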

Additional observations from a re-analysis of the deposited data

Results flagged for a closer look

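For 2 of the 48 pathway genes, the response to potassium differed between the strains by the interaction test over all features (edgeR), where 2.74% of all features passed. *AAH1*, adenine deaminase, had an interaction of 0.44 on the log2 scale (SE 0.0853, adjusted p = 0.00436), with log2 changes in low potassium of -0.038 in *sis2*Δ (adjusted p = 0.640) and -0.48 in WT (adjusted p = 1.30e-06). *GGC1*, the mitochondrial GTP and GDP carrier, had an interaction of -0.45 (SE 0.0831, adjusted p = 0.00337), with a smaller rise in *sis2*Δ than in WT. Causes were not tested.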

How the results depend on the processing

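The changes of *IMD2*, *IMD3*, *IMD4* and *GUA1* that passed the test kept their direction and their side of the threshold under all alternatives run, and no value with a call changed sign. Summing all *IMD* rows into 1, which by construction follows the abundant *IMD3* and *IMD4*, gave -1.06 for low potassium in WT, -0.75 in *sis2*Δ (adjusted p = 1.16e-08, edgeR), -0.57 between *sis2*Δ and WT cells in 7.35 mM KCl, -0.26 in 0.5 mM KCl, and an interaction of 0.31. Summing *IMD2* with the *IMD1* rows alone changed no call. With 1 library left out, *IMD2* in low potassium in *sis2*Δ ranged from -0.22 to -0.061. Over the 48 pathway genes, *sis2*Δ against WT in 7.35 mM KCl gave 1 higher, 0 to 3 with 1 library left out and 2 in DESeq2. In 0.5 mM KCl it gave 0 higher (0 to 1) and 2 lower (0 to 4, and 0 in a fit of only the 6 libraries). The interaction gave 1 higher (1 to 3). The replicate block gave -1.74 for *IMD2* in low potassium in WT and -0.13 in *sis2*Δ (adjusted p = 0.0998, edgeR), and beside the adenine branch count given above it moved no count of calls by more than 1.5 times and changed no call of the 5 genes. *IMD2* had 877 to 1372 counts a library in *sis2*Δ, and the *IMD1* rows equalled up to 4.88% of that. The cause of these dependences was not tested.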
